A study of Mus musculus with 15 samples.

Results

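Olfactory receptor genes form a very large gene family of the mouse genome and were taken as a silent family, so their starts served as a reference for background in each histone mark. These libraries hold no measure of expression, so the silence of the members was assumed and not tested. The regions were windows centred on the annotated start of every protein-coding gene whose symbol begins with Olfr on chromosomes 1 to 19 and X of the mm9 genome build, 3 kb wide for H3K4Me1 and H3K27Ac and 5 kb wide for H3K27Me3. There were 1113 such starts among 22350 protein-coding starts, or 4.98% of them. The study followed C10 cells, a clone derived from HAFTL mouse pre-B cells. It expresses C/EBPα joined to the hormone-binding part of the estrogen receptor and becomes macrophage-like when the fusion protein is activated with β-estradiol in the presence of IL-3 and CSF-1. Chromatin was collected at 0, 3, 12, 24 and 48 hours post induction (hpi) and immunoprecipitated for H3K4Me1, H3K27Ac or H3K27Me3, which gave 15 libraries. Every group is 1 mark at 1 time in this single clone, the fusion is present also at 0 hpi, and an ethanol control is named for the solvent without being tied to the 0 hpi libraries. With 1 library per group there was no replicate check and no test, and all intervals are exact 95% intervals that cover counting error only, since reads without molecular identifiers are not independent molecules.

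An olfactory receptor is a receptor coupled to a G protein that binds odorants on the cilia of nose neurons. Each mature olfactory neuron uses 1 allele of 1 receptor gene, and the remaining copies are held in compact heterochromatin. The genes lie in large clusters that are poor in G and C, most have their whole coding sequence in a single exon, and promoters of the family are known for binding sites of Ebf factors and of homeodomain factors such as Lhx2. H3K4Me1 marks enhancers that are poised or active, H3K27Ac marks active enhancers and promoters, and H3K27Me3 is the mark laid down by Polycomb repressive complex 2.

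The sequences before 4 of the starts are given because these members recur below. Olfr432 had the highest mean H3K4Me1 of the family, Olfr433 the highest H3K27Ac, Olfr223 the highest H3K27Me3, and Olfr17, which encodes the P2 receptor, is the well-studied member whose active marks were present at 0 hpi and low at 48 hpi. Each run holds the 200 bases before the start, read 5′ to 3′ on the strand of the gene from mm9. Capitals mark a match to the homeodomain letters TAATTA, and the Ebf letters CCCNNGGGA, the C/EBP letters TTGCNNAA and the PU.1 letters AGGAAGT, searched on both strands, had no match in these 4 runs. Olfr432 lies at chr1:175980306-175980505 on the plus strand, Olfr433 at chr1:175971864-175972063 on the plus strand, Olfr223 at chr11:59403671-59403870 on the minus strand and Olfr17 at chr7:114240763-114240962 on the plus strand.
Olfr432: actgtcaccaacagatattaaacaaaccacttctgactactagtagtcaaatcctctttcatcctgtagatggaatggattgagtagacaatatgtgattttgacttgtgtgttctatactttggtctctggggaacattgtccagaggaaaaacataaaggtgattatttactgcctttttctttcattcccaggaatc
Olfr433: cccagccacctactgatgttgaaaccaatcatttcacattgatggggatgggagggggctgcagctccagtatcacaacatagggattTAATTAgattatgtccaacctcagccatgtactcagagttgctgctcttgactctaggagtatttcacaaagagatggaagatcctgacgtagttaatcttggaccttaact
Olfr223: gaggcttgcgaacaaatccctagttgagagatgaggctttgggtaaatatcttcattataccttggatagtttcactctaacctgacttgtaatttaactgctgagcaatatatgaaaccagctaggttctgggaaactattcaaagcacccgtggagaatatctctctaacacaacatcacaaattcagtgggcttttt
Olfr17: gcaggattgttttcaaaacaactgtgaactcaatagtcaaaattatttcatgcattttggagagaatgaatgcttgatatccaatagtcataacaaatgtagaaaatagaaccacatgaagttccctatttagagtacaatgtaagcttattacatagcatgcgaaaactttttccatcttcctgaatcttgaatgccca

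In the same 200-base stretch, the TAATTA letters were found before 15.4% of the 1113 members and 3.48% of all protein-coding starts, and the C/EBP letters before 11.5% and 7.20%. The Ebf letters were found before 2.34% of members and 5.03% of all starts, and the PU.1 letters before 3.95% and 6.06%. The median content of G and C in this stretch was 34.0% for members and 55.5% for all starts, and letter matches follow base composition, so these shares are descriptions of the sequence only. For 637 members (57.2%) the annotated start is the first base of the coding sequence, so the stretch before it need not be a promoter. The Ebf letters stood before 23 of the 476 members whose start lies upstream of the coding sequence and before 3 of the 637 others.

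The pooled level of the family was well below the library mean for both active marks in all 5 libraries of each, and close to the library mean for H3K27Me3. A level is the number of distinct tag positions in a window divided by the number that the mean of the library would place there, so that 1 is the library mean. Pooled over the 1113 starts, the H3K4Me1 level was 0.325 (0.317 to 0.333) at 0 hpi, 0.282 (0.275 to 0.289) at 3 hpi, 0.252 (0.245 to 0.258) at 12 hpi, 0.241 (0.233 to 0.248) at 24 hpi and 0.253 (0.245 to 0.261) at 48 hpi. The H3K27Ac level was 0.225 (0.218 to 0.231), 0.303 (0.296 to 0.310), 0.243 (0.236 to 0.249), 0.154 (0.150 to 0.160) and 0.218 (0.212 to 0.224) at the same times. For H3K27Me3 the level was 0.998 (0.991 to 1.01), 1.04 (1.03 to 1.05), 1.01 (1.0 to 1.02), 1.03 (1.02 to 1.04) and 0.988 (0.977 to 0.999). H3K4Me1 was thus highest at 0 hpi, H3K27Ac went up at 3 hpi and down at 24 hpi, and H3K27Me3 stayed within a narrow band. Most of the genome also lay below the library mean. The median mappable bin (1 kb, or 5 kb for H3K27Me3) was at 0.345, 0.161 and 0.782 for H3K4Me1, H3K27Ac and H3K27Me3 at 0 hpi. The median member was at 0.230, 0.161 and 0.862. At 48 hpi the bin was at 0.224, 0.149 and 0.689 and the member at 0.150, 0.149 and 0.755. For H3K27Ac the 2 medians were thus equal at both times. In a bulk library, a mark in fewer cells and less of the mark per cell cannot be told apart.

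**Figure D1:**
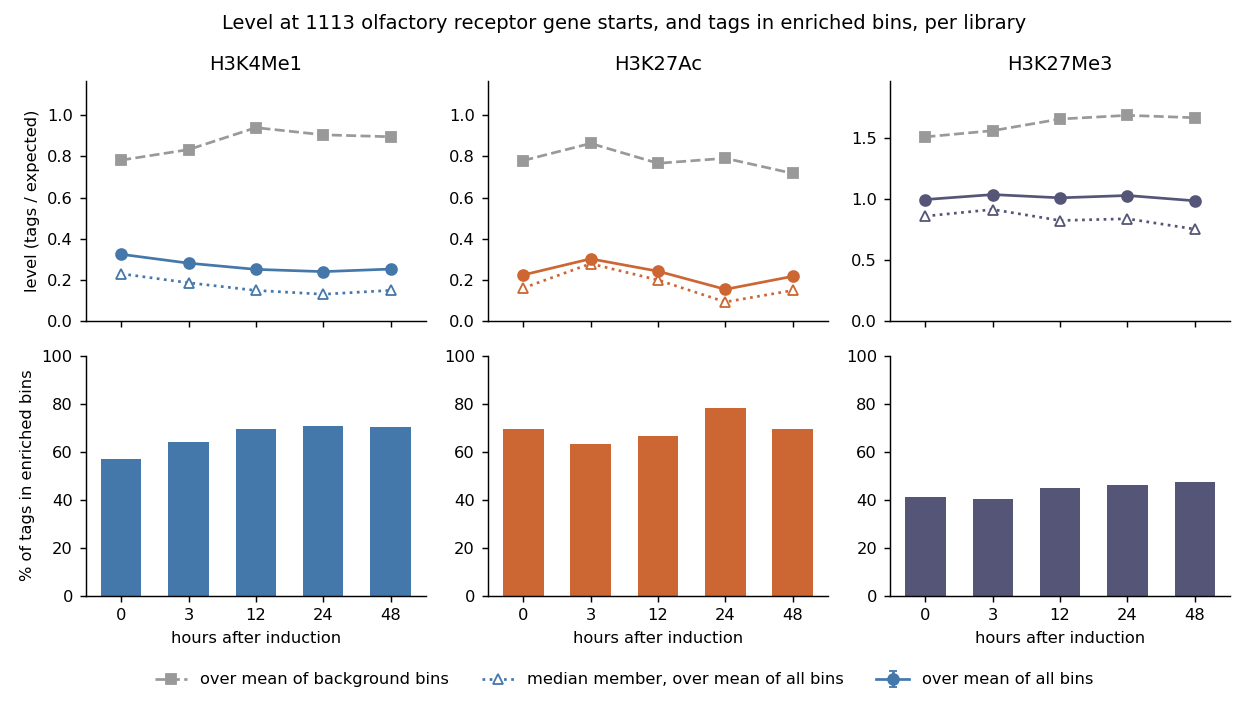
Upper panels show the level at the 1113 olfactory receptor starts by hours post induction, with filled circles for the pooled level over the library mean and its 95% interval, triangles for the median member and grey squares for the pooled level over bins that were not enriched. Lower panels show the share of tags in enriched bins, in percent, which for H3K4Me1 was 56.9% at 0 hpi and 70.1% at 48 hpi while the pooled level went from 0.325 to 0.253.

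The change of the family between 0 and 48 hpi on the log2 scale was −0.36 (−0.42 to −0.30) for H3K4Me1, −0.05 (−0.10 to 0.01) for H3K27Ac and −0.01 (−0.03 to 0.00) for H3K27Me3. The directions for H3K4Me1 and H3K27Me3 depended on the scale. The share of tags that lay in enriched bins of 1 kb was 56.9% at 0 hpi and 70.1% at 48 hpi for H3K4Me1, so a window outside enriched bins had fewer tags left over at 48 hpi at the same depth. When the level was instead expressed relative to the bins that were not enriched, the family's H3K4Me1 level went from 0.782 at the start to 0.896 at the last time, or 0.20 on the log2 scale. The median member did not follow the pooled level, with a log2 change of −0.06 for H3K4Me1 on that scale. That scale shifts every window by 0.56 for H3K4Me1, by −0.07 for H3K27Ac and by 0.16 for H3K27Me3. H3K27Ac followed the same measure, with 63.2% of tags in enriched bins at 3 hpi, when the family was highest, and 78.1% at 24 hpi, when it was lowest. Relative to bins that were not enriched, the family stood between 0.718 and 0.864 for H3K27Ac at all 5 times. For H3K27Me3 on that scale it stood between 1.51 and 1.69, with a change of 0.14 on the log2 scale from 0 to 48 hpi. Since that scale leaves out the enriched bins, a family at the library mean lies above 1 on it by construction. By the library mean, with a pseudocount of 0.2 added to each level, the median log2 change of the members was −0.36, −0.05 and −0.11 for H3K4Me1, H3K27Ac and H3K27Me3, beside −0.35, −0.13 and 0 over all protein-coding starts. The pseudocount is about as large as the level of the median member for the active marks and so shrinks the changes of members more than those of starts with higher levels. Without it, the median H3K4Me1 level went from 0.230 to 0.150 for the members and from 1.72 to 1.42 for the other protein-coding starts. Whether the lower H3K4Me1 of the family reflects its own chromatin or the share of tags elsewhere was not tested.

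These levels rest on few tags per start for the active marks and on more for H3K27Me3. The libraries held between 10913733 and 31541879 distinct tag positions, and the H3K27Me3 library at 0 hpi was the deepest. The library mean corresponds to 13.4 to 21.5 tags per window for H3K4Me1, 18.6 to 21.5 for H3K27Ac and 30.5 to 62.6 for H3K27Me3. The median member held 4, 4, 3, 2 and 2 H3K4Me1 tags and 3, 6, 4, 2 and 3 H3K27Ac tags from 0 to 48 hpi, against 54, 33, 31, 35 and 23 H3K27Me3 tags. Between 43 and 184 members had no H3K4Me1 tag, between 29 and 160 had no H3K27Ac tag, and 5 to 8 had no H3K27Me3 tag. In all, 578 members had a tag in every library and 5 had none in any. A window without a tag allows a level of up to 0.224 for H3K4Me1 at 48 hpi (3 tags over the expected number), so lower levels could not be resolved for a single start. The median window was uniquely alignable at 92.6% of its positions, against 97.9% over all starts, 899 members were at or above 80%, and 1 member had no unique position.

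The family was lower than other starts for both active marks. Pooled per uniquely alignable position, vomeronasal receptor starts and Olfr pseudogene starts were below the family for both active marks at all 5 times. Taste receptor starts were above the family for both active marks at all 5 times, apart from H3K27Ac at 0 hpi. These orders are of pooled levels. In levels over the library mean, the median pseudogene start equalled the median member at 0 hpi, at 0.230 for H3K4Me1 and 0.161 for H3K27Ac. At 48 hpi it was equal again for H3K4Me1, at 0.150, and lower for H3K27Ac, at 0.0995 against 0.149. The 21237 other protein-coding starts had median levels of 1.72 for H3K4Me1 and 1.34 for H3K27Ac at 0 hpi, and the 80 starts of ribosomal protein genes a median of 25.1 for H3K27Ac. Per uniquely alignable position, the 328 vomeronasal receptor starts had an H3K4Me1 level of 0.229 at 0 hpi and 0.134 at 48 hpi, the 133 Olfr pseudogene starts 0.279 and 0.204, the 35 taste receptor (Tas2r) starts 0.351 and 0.565, and the 1113 members 0.327 and 0.255. The higher pooled value of the taste receptor starts at 48 hpi came with 3 starts at a level of 2 or more, against 1 at 0 hpi, while their median went from 0.230 to 0.150. The H3K27Ac levels at these times were 0.185 and 0.163 for the vomeronasal starts, 0.183 and 0.186 for the pseudogene starts, 0.220 and 0.357 for the taste receptor starts, and 0.226 and 0.219 for the members. Among the taste receptor starts, 0 at 0 hpi and 1 at 48 hpi had an H3K27Ac level of 2 or more. For H3K27Me3 the vomeronasal starts had 0.916 and 0.869, the pseudogene starts 0.814 and 0.746, the taste receptor starts 0.848 and 0.871, and the members 0.972 and 0.962. The taste receptor starts were thus above the members for H3K4Me1 at both times and for H3K27Ac at 48 hpi, and the other values of these 3 families were below those of the members. At 3, 12 and 24 hpi the taste receptor starts were above the members for both active marks. Pooled, the 41 beta-defensin starts were above the members at 0 and 48 hpi for all 3 marks. Their medians at 48 hpi equalled those of the members for the active marks, at 0.150 for H3K4Me1 and 0.149 for H3K27Ac. The pooled beta-defensin levels per uniquely alignable position were 0.678 and 0.675 for H3K4Me1, 0.317 and 0.348 for H3K27Ac, and 1.55 and 1.71 for H3K27Me3 at 0 and 48 hpi. The 40 Hox gene starts, a textbook Polycomb target, had a median H3K27Me3 level of 2.27 at 0 hpi and 2.45 at 48 hpi, against 0.862 and 0.755 for the median member. Inside the clusters, 1242 windows at least 10 kb from any start had median levels of 0.172 for H3K4Me1 and 0.575 for H3K27Me3 at 0 hpi, below the median member, while their pooled H3K4Me1 level per uniquely alignable position was higher at 0.543, with 43 of these windows at a level of 2 or more. For H3K27Me3 these windows were uniquely alignable at a median of 77.7% of positions, against 92.5% for members. Pooled per such position, their H3K27Me3 level was 0.890, against 0.972 for the members. Base composition accompanies these levels. The median member window had 37.1% G and C, against 49.6% for other starts, and genome bins of 5 kb with 36 to 38% G and C had median levels of 0.284 for H3K4Me1, 0.199 for H3K27Ac and 0.766 for H3K27Me3 at 0 hpi. The median member at 0 hpi, at 0.230, 0.161 and 0.862, was below such bins for the active marks and above them for H3K27Me3. At 48 hpi it was above them for H3K4Me1, at 0.150 against 0.138, and for H3K27Me3, at 0.755 against 0.689. For H3K27Ac it was below them, at 0.149 against 0.184. For the active marks the member windows were 3 kb wide, with a median of 4 H3K4Me1 and 3 H3K27Ac tags at 0 hpi, so these differences are small and of unlike windows. The part of base composition in them was not tested.

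At 0 hpi the pooled profile of the family differed little between the start and its upstream side for H3K27Ac and H3K27Me3. Both active marks were higher in the first kb downstream. Per uniquely alignable position, the H3K27Ac level at 0 hpi was 0.229 within 500 bp of the member starts and 0.212 at 2.5 to 5 kb upstream, whereas for other protein-coding starts these values were 13.2 and 1.89. For H3K27Me3 at 0 hpi the members had 0.997 within 500 bp and 0.979 upstream, while other starts fell from 1.34 upstream to 0.814 within 500 bp. At 12 hpi the members had 0.266 within 500 bp and 0.217 upstream for H3K27Ac, and at 48 hpi 0.936 and 0.980 for H3K27Me3. For H3K4Me1 at 0 hpi the members had 0.286 upstream, 0.374 within 500 bp and 0.474 in the first kb downstream, while other starts went from 1.88 upstream to 1.56 within 500 bp. Pooled over the members, the first kb downstream, which covers the coding exon of most members, held an excess of both active marks and a smaller one of H3K27Me3. There the H3K4Me1 level was 1.66 times the upstream level at 0 hpi and 1.74 times at 48 hpi, and the H3K27Ac level 1.47 and 1.59 times, with the smallest H3K27Ac ratio, 1.11, at 3 hpi. For H3K27Me3 the ratio was 1.11 at 0 hpi and 1.12 at 48 hpi. The content of G and C was also higher there, at 43.2% in the first kb against 37.8% upstream and 38.3% at 2.5 to 5 kb downstream, and its part in the excess was not tested. Single members add many tags to the pooled H3K27Ac. At 48 hpi the strongest 500 bp of Olfr1230, Olfr872, Olfr1509 and Olfr229 held 115, 100, 64 and 44 tags, and at 3 hpi 6, 10, 23 and 0. Their centres lay 550, 950, 650 and 150 bp downstream of the start. How far the excess and its small size at 3 hpi rest on such members was not tested.

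**Figure D2:**
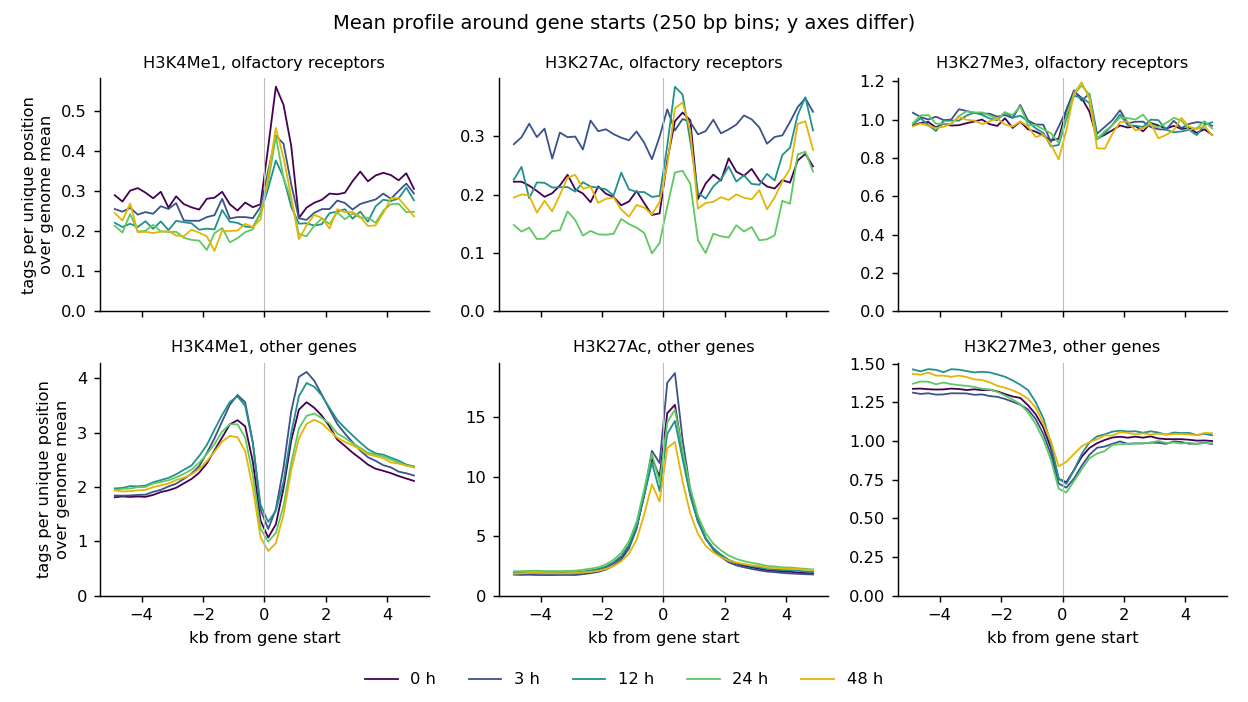
Mean level of each mark per uniquely alignable position against distance from the start in kb, in bins of 250 bp, for olfactory receptor starts (upper panels) and other protein-coding starts (lower panels), with 1 line per time and different vertical axes. At 0 hpi H3K27Ac within 500 bp of the start was 0.229 for the family and 13.2 for other starts, and H3K4Me1 of the family was 0.474 in the first kb downstream and 0.286 upstream.

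The 1113 starts lie on 18 chromosomes, with 286 on chromosome 2, 240 on chromosome 7 and 129 on chromosome 9, and a median of 15.1 kb separates a member from the next. Joined over gaps of less than 1 Mb, they form 50 clusters, of which 22 with at least 10 members hold 1022 of them. The clusters differed in H3K27Me3 much more than the 5 times did. At 0 hpi the pooled H3K27Me3 level of the 22 clusters ran from 0.609 in a cluster of 37 members on chromosome 2 to 1.85 in a cluster of 23 members on chromosome 11, with a median of 1.01. At 48 hpi the same chromosome 11 cluster was again highest at 1.99, and the largest cluster, with 221 members on chromosome 2, was lowest at 0.544. H3K4Me1 was highest in all 5 libraries in a chromosome 1 cluster that holds Olfr432 and Olfr433, at 0.931 at 0 hpi and 1.33 at 48 hpi, while the median cluster went from 0.334 to 0.203. For H3K27Ac the same cluster was highest until 24 hpi, at 0.945 then, and a chromosome 9 cluster that holds Olfr872 was highest at 48 hpi at 0.499. Between 0 and 48 hpi the pooled level was lower in 20 of 22 clusters for H3K4Me1, in 17 for H3K27Ac and in 14 for H3K27Me3. Relative to bins that were not enriched it was lower in 11 clusters and higher in 11 for H3K4Me1, lower in 18 for H3K27Ac and lower in 6 for H3K27Me3, so the direction over clusters depended on the scale for H3K4Me1 and H3K27Me3. The highest cluster for H3K27Me3 depended on the gap. With members joined over gaps of less than 500 kb, it was a chromosome 7 cluster of 25 members, at 1.53 at 0 hpi and 1.79 at 48 hpi. The chromosome 11 cluster then held 20 members, without Olfr222, Olfr223 and Olfr225, at 1.47 and 1.53. With that gap the highest cluster level at 0 hpi was 1.19 for H3K4Me1 and 0.571 for H3K27Ac.

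**Figure D3:**
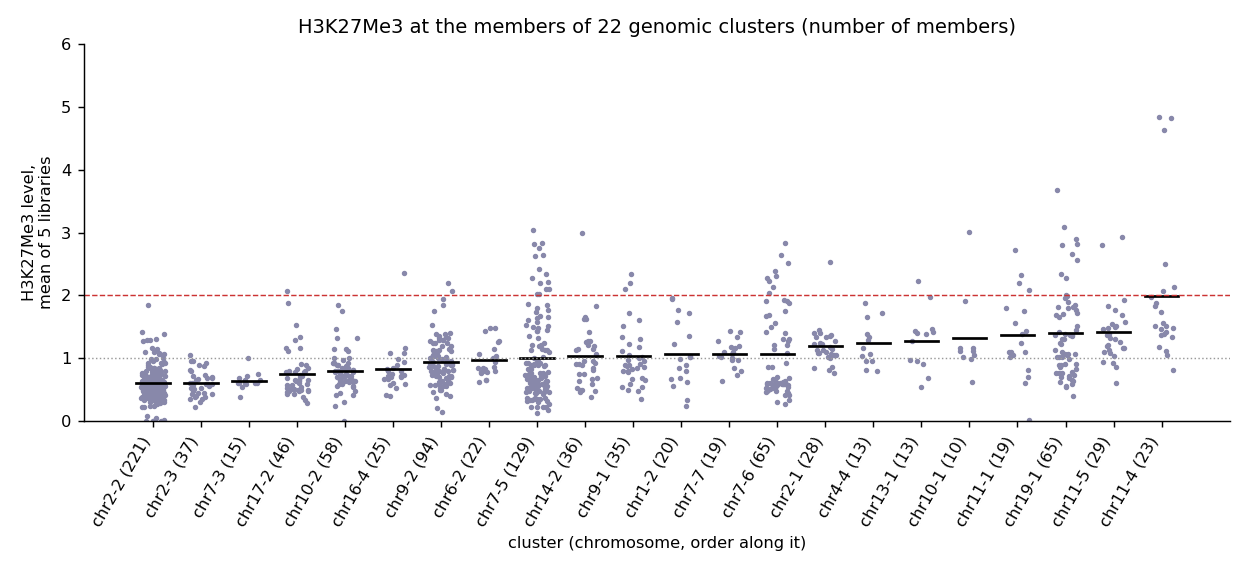
H3K27Me3 level of each member (points, mean of the 5 libraries) in the 22 clusters with at least 10 members, with the number of members in brackets, a black bar for the pooled level of the cluster, and lines at 1 and 2. The largest cluster of 221 members lies at the low end, and the 3 points above 4 in the last cluster are Olfr222, Olfr223 and Olfr225.

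Members kept their rank for H3K27Me3 over the 5 times and less so for the active marks at their few tags per window. Across the 1113 members the rank correlation (Spearman's rho) between 2 times was 0.87 to 0.91 for H3K27Me3, 0.38 to 0.50 for H3K4Me1 and 0.25 to 0.36 for H3K27Ac. Windows share alignability and base composition between libraries, the active marks had a median of 2 to 6 tags per window, and the members are not independent, so the values describe these libraries only. Between marks at the same time, rho was 0.33 to 0.48 for H3K4Me1 with H3K27Me3 and 0.28 to 0.40 for H3K4Me1 with H3K27Ac. H3K27Me3 was higher in members richer in G and C (rho 0.44 to 0.48) and lower in members farther from a start of another gene family (rho −0.42 to −0.40). The active marks had the same signs. For H3K4Me1 these rho were 0.21 to 0.45 and −0.32 to −0.17, and for H3K27Ac 0.12 to 0.31 and −0.19 to −0.04. Adjacent members resembled each other. Over 1052 pairs of neighbours at least 5 kb apart, rho of the mean level was 0.76 for H3K27Me3, 0.39 for H3K4Me1 and 0.34 for H3K27Ac, and rho of the change from 0 to 48 hpi was 0.20, 0.13 and 0.08.

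Distance to the nearest coding start outside the family ordered the H3K27Me3 levels. The 97 members within 25 kb of such a start had a median level of 1.33 at 0 hpi, the 329 members at 25 to 100 kb 1.07, the 530 members at 100 to 500 kb 0.798 and the 157 members farther away 0.623. At 48 hpi the medians were 1.44, 1.05, 0.689 and 0.492, so the ends of this order were farther apart than at 0 hpi. At 0 hpi, members at or above a level of 2 numbered 21 (21.6%), 44 (13.4%), 12 (2.26%) and 0 in these 4 classes, against 14.5% of all starts. At 48 hpi they numbered 30 (30.9%), 62 (18.8%), 24 (4.53%) and 0, against 17.7%, so the class at 25 to 100 kb was near the share of all starts at both times. The class nearest to other genes was thus the highest at both times, and the part of base composition in this order was not tested.

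Few members carried an active mark. A level of at least 2 (2-fold over the library mean) was reached for H3K4Me1 by 9 members at 0 hpi, against 45.0% of all protein-coding starts, and by 18 members at 48 hpi, against 40.6%. It was reached in all 5 libraries by 6 members, against 35.5% of all starts. For H3K27Ac there were 9 members at 0 hpi, against 46.0% of all starts, and 9 at 48 hpi, against 46.6%, and 3 members reached it in all 5 libraries, against 43.5%. For H3K27Me3 there were 77 members at 0 hpi, against 14.5% of all starts, 116 at 48 hpi, against 17.7%, and 49 in all 5 libraries, against 10.2%. At any of the 5 times, 23 members reached the level for H3K4Me1, against 52.0% of all starts, 15 for H3K27Ac, against 49.2%, and 144 for H3K27Me3, against 21.4%. No mark reached it at any time at 950 members, against 34.4% of all starts. The active marks overlapped in 13 members, out of 23 for H3K4Me1 and 15 for H3K27Ac, against 47.1% of all starts. H3K27Me3 was shared with H3K4Me1 in 6 members, against 9.79% of all starts, and with H3K27Ac in 1, Olfr692, against 6.70%. Among the 15 is Olfr56, whose start lies 0.509 kb from that of 9930111J21Rik1 and whose window was uniquely alignable at 4.03% of positions, so its H3K27Ac levels of 1.72 to 2.63 are uncertain. Of the members that reached the level at any time, 16 of 23 for H3K4Me1, 10 of 15 for H3K27Ac and 111 of 144 for H3K27Me3 lay within 100 kb of a start outside the family, as did 38.3% of all members.

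The strongest H3K4Me1 of the family lay at a pair of members on chromosome 1 beside Ifi205, an interferon-inducible gene of the innate immune system. Olfr432, 18.6 kb from the Ifi205 start, had H3K4Me1 levels of 8.45, 9.97, 11.0, 10.5 and 8.67 from 0 to 48 hpi. Its H3K27Ac levels were 1.5, 2.93, 4.89, 6.42 and 2.09. Olfr433, 10.2 kb from the Ifi205 start, had H3K4Me1 levels of 4.89, 6.29, 10.2, 9.67 and 9.64 and H3K27Ac levels of 3.54, 7.17, 9.24, 9.87 and 2.64. In both members H3K27Ac peaked at 24 hpi and was lower again at 48 hpi, whereas H3K4Me1 was still high. H3K27Me3 was low at both, between 0.278 and 0.399 at Olfr432 and between 0.131 and 0.400 at Olfr433. In windows of 500 bp, the H3K4Me1 maximum of Olfr432 was centred 450 bp downstream of its start, and the H3K27Ac maximum of Olfr433 was 1350 bp upstream of its start.

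Further members with active marks lay on other chromosomes. Olfr1509 on chromosome 14, 122 kb from Sall2, had H3K4Me1 levels of 5.06, 6.76, 5.27, 5.23 and 4.49 and H3K27Ac levels of 9.81, 4.19, 4.10, 7.77 and 6.07. Both marks of Olfr1509 were present in every library, with H3K27Ac lowest at 3 and 12 hpi. Olfr1507, which encodes the MOR28 receptor and lies in the same cluster, had H3K4Me1 levels between 0.131 and 0.199 and H3K27Ac levels between 0 and 0.199. Olfr872 on chromosome 9, 148 kb from Zfp560, had H3K27Ac levels of 5.36, 1.26, 3.70, 6.33 and 11.7, so that it dropped at 3 hpi and was highest at 48 hpi, a 2.19-fold (1.73 to 2.79) higher level than at 0 hpi. The H3K4Me1 levels of Olfr872 moved less, from 2.53 to 3.29 with a high of 3.68 at 12 hpi. Olfr272 on chromosome 4 had H3K27Ac levels of 6.01, 10.2, 3.60, 2.33 and 2.84. Olfr549 on chromosome 7, 11.2 kb from Trim21, which encodes an antibody receptor inside cells, also had H3K4Me1 at the level of 2 in all libraries, between 2.17 and 2.94. So did Olfr9, described below.

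Among members with a level of 2 or more at either end of the time course, H3K4Me1 was gained at 9 and lost at 2 between 0 and 48 hpi, and without that minimum losses outnumbered gains. A change was counted where the log2 ratio, with 0.2 added to each level, was at least 1 in size and the higher level was at least 2. By this rule H3K4Me1 was higher at 48 hpi at 9 members, against 2.8% of all protein-coding starts, and lower at 2 members, against 4.49%. H3K27Ac was higher at 4 members, against 3.07% of all starts, and lower at 4, against 7.35%. H3K27Me3 was higher at 7 members, against 0.174% of all starts, and lower at 0 members, against 0.103%. In shares of the family, these were 0.809% and 0.180% for H3K4Me1, 0.359% each way for H3K27Ac, and 0.629% and 0% for H3K27Me3, so that by this rule only the gains of H3K27Me3 exceeded the share of all starts. The 5 adjacent members among those 7 share their surroundings and are not independent of each other. Without the minimum level of 2, H3K4Me1 was higher at 32 members (2.88%, against 3.70% of all starts) and lower at 153 (13.7%, against 14.5%). H3K27Ac was then higher at 21 (1.89%, against 5.67%) and lower at 43 (3.86%, against 10.2%). H3K27Me3 was then higher at 7 (0.629%, against 0.251%) and lower at 8 (0.719%, against 0.667%), so its changes were no longer in 1 direction. With 1 library per time, such counts hold no estimate of how often a second library would give them.

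In windows of 3 kb, the members with the largest fold gains of H3K27Ac were Olfr229 and Olfr1230, and Olfr229 also had the largest fold gain of H3K4Me1. Olfr1230 lies inside the largest cluster on chromosome 2, 851 kb from the nearest other coding start, and its H3K27Ac levels were 0.429, 1.02, 1.10, 7.40 and 12.1. The level at 48 hpi was 28.3 times (14.1 to 66.3) that at 0 hpi, with the step between 12 and 24 hpi. Its H3K4Me1 levels were 0.920, 0.979, 1.54, 3.27 and 4.86, a 5.28-fold gain that was smaller than those of Olfr229, Olfr788, Olfr460, Olfr231, Olfr692 and Olfr701, and its H3K27Me3 stayed between 0.906 and 1.20. Olfr229 lies on chromosome 9, 141 kb from the nearest other coding start, and had H3K4Me1 levels of 0.172, 0.839, 2.14, 3.20 and 4.56, which were up 26.4-fold (8.63 to 132) at 48 hpi. Its H3K27Ac levels were 0.161, 0.466, 1.25, 2.51 and 4.83, or 30.0-fold (9.96 to 148) higher, from 3 tags at 0 hpi. Its place in the order turned with the window. The log2 change of H3K4Me1 was 3.32 at Olfr229 and 4.30 at Olfr460 in windows of 1 kb, and 2.07 and 3.40 in windows of 10 kb. In windows of 10 kb the log2 change of H3K27Ac was 2.41 at Olfr229, below the 2.84 of Olfr692. At Olfr1230 it was 3.14 in windows of 10 kb, against 4.29 in windows of 3 kb. Both genes start at the first base of the coding sequence in the annotation.

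For these 2 members the 300 bases with most H3K27Ac tags in the window are given, since they show where the gain was. The stretches were chosen after their values were seen. For Olfr1230 the stretch is chr2:89136925-89137224 on the minus strand, 201 to 500 bases downstream of the start, with 0, 1, 7, 50 and 84 H3K27Ac tags from 0 to 48 hpi. For Olfr229 it is chr9:39717440-39717739 on the plus strand, 50 to 349 bases downstream, with 1, 0, 7, 14 and 28 tags. Capitals mark the C/EBP letters TTGCNNAA on either strand.
Olfr1230: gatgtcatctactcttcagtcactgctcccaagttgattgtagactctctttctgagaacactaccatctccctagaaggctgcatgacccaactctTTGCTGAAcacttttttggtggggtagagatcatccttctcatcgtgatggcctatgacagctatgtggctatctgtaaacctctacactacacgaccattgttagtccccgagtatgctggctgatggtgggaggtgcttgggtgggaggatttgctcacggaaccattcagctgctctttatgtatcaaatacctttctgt
Olfr229: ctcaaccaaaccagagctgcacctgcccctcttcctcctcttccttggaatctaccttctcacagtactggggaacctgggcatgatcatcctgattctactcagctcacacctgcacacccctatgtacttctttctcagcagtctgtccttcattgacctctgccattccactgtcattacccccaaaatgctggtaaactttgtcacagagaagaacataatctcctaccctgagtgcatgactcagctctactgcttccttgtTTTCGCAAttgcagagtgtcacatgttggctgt
The C/EBP letters began at base 98 of the Olfr1230 stretch and at base 268 of the Olfr229 stretch. They were found in the corresponding stretch of 14.8% of all 1113 members and in 3 of the 15 members that reached a level of 2 for H3K27Ac. The corresponding stretches of Olfr872, also counted as higher for H3K27Ac, and of Olfr1509 held no match to these letters. A match is a run of letters and not a measured binding site.

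The other members that gained H3K4Me1 lay in different neighbourhoods. Olfr460 on chromosome 6, 14.4 kb from Clec5a, a lectin receptor of myeloid cells, had H3K4Me1 levels of 0.575, 1.07, 2.59, 4.64 and 8.15, the highest H3K4Me1 reached by a gaining member. Its H3K27Me3 was high too, at 2.76, 2.67, 4.34, 4.73 and 4.96, while H3K27Ac in its window stayed between 0.326 and 1.34. Within 10 kb of its start, the 500 bp with the most H3K27Ac tags over the 5 libraries, centred 4650 bp downstream, went from 0 tags at 0 hpi to 200 at 48 hpi, a level of 59.7, and the 500 bp with the most H3K4Me1 tags, centred 2050 bp downstream, from 0 tags to 57, a level of 25.6. Olfr266 on chromosome 3, 32.4 kb from Cd53, a tetraspanin of white blood cells, had 1.61, 2.42, 3.33, 4.77 and 7.25 for H3K4Me1. Olfr788 on chromosome 10, 512 kb from the nearest other coding start, had 0.172, 0.373, 1.54, 3.01 and 2.84. In these 3 members H3K4Me1 was higher at 12 hpi than at 0 hpi, and the highest H3K27Ac among them was 2.19, at Olfr266 at 24 hpi. The remaining members were Olfr692, described with its surroundings next, and Olfr231, Olfr1226 and Olfr701, which the naming rule left out and which were chosen after their values were seen. Olfr231 went from 0.230 to 3.22, Olfr1226 from 1.03 to 3.22 and Olfr701 from 0.460 to 3.36.

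The members that lost an active mark differed in when they lost it. Olfr17, the P2 receptor gene, had H3K27Ac levels of 3.65, 0.698, 0.499, 0.233 and 0.298, so that it was below 1 from 3 hpi onward and the level at 0 hpi was 12.2 times (5.33 to 34.5) that at 48 hpi. Its H3K4Me1 levels, 2.70, 3.31, 1.89, 1.76 and 0.822, fell later. Olfr9 on chromosome 10, 28.9 kb from Mettl7b, had H3K27Ac levels of 3.49, 0.791, 0.400, 0.419 and 0.796, and H3K4Me1 levels of 6.44, 7.04, 4.77, 4.12 and 3.29 that did not count as changed. Olfr279 on chromosome 15 had H3K27Ac levels of 2.25, 0.605, 0.749, 0.466 and 0.448. Olfr763, a neighbour of Olfr9, had H3K4Me1 levels of 2.07, 1.40, 0.398, 0.327 and 0.523, a log2 change of −1.65 that was −0.49 in windows of 10 kb and there too small to count. The windows of Olfr9 and Olfr763 were uniquely alignable at 65.3% and 65.5% of positions. In Olfr17, Olfr9 and Olfr279 alike, H3K27Ac was below 1 from 3 hpi onward, while Olfr272, the fourth member counted as lower, was highest at 3 hpi.

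**Figure D4:**
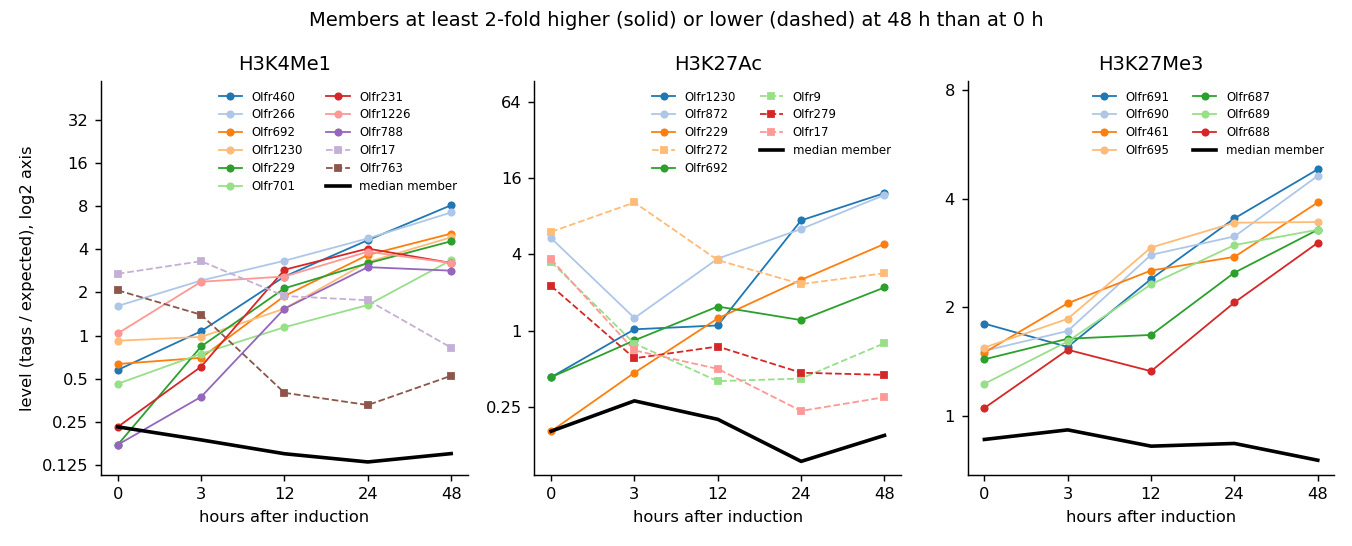
Level of every member counted as changed between 0 and 48 hpi against hours post induction, 1 panel per mark, on a log2 vertical axis, with solid lines for higher, dashed lines for lower and black for the median member. H3K27Ac at Olfr1230 went from 0.429 to 12.1 and at Olfr17 from 3.65 to 0.298, and all 7 lines for H3K27Me3 end higher.

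Many of the members with the highest H3K27Me3 lay in runs of adjacent members, and others, such as Olfr460, Olfr63 and Olfr49, stood alone. The 49 members at or above a level of 2 in all 5 libraries lay in 23 clusters and in 31 runs of neighbours, and 11 runs of 2 or more held 29 of them. Olfr222, Olfr223 and Olfr225 on chromosome 11 were 1 such run, near Nlrp3, the sensor of an inflammasome of macrophages. Olfr223 had H3K27Me3 levels of 4.26, 4.36, 5.57, 4.78 and 5.19, Olfr225 had 5.00, 4.17, 5.52, 5.09 and 4.33, and Olfr222 had 3.99, 3.39, 5.12, 4.99 and 5.65. The 3 members overlapped in level and were above 4 in every library other than those of 0 and 3 hpi for Olfr222. H3K4Me1 at Olfr222, the member nearest to Nlrp3, was 1.15 at 0 hpi and 2.09 at 48 hpi, while at Olfr223 it was between 0.224 and 0.460. The longest run held 5 members on chromosome 19, Olfr1438-ps1, Olfr1440, Olfr1441, Olfr1442 and Olfr1443, with mean levels from 2.27 to 3.68. Olfr164 on chromosome 16 was between 3.18 and 4.26, Olfr721-ps1 on chromosome 14 between 2.99 and 4.24, Olfr63 on chromosome 17 between 2.83 and 4.08, Olfr49 on chromosome 14 between 2.89 and 3.81, and Olfr215 on chromosome 6 between 2.81 and 4.01. Of the 5 members just named, Olfr164, Olfr721-ps1, Olfr63 and Olfr49 were highest at 12 hpi and Olfr215 at 48 hpi.

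The gains of H3K27Me3 were concentrated on chromosome 7, where 6 of the 7 members lay, and 5 of them were adjacent. From Olfr687 to Olfr691, over 62.2 kb, each member was counted as higher at 48 hpi. Olfr690 had H3K27Me3 levels of 1.52, 1.72, 2.80, 3.15 and 4.63, a 3.05-fold (2.34 to 4.0) gain, or 1.49 on the log2 scale with the pseudocount, which was 0.97 in windows of 1 kb and there too small to count. Olfr688 had 1.05, 1.53, 1.33, 2.06 and 3.02, and Olfr691 had 1.80, 1.56, 2.40, 3.53 and 4.83. Both showed most of the gain from 12 hpi onward. Olfr687, Olfr689, Olfr695 and Olfr461, which the naming rule left out and which were chosen after their values were seen, went from 1.44 to 3.28, from 1.23 to 3.28, from 1.55 to 3.45 and from 1.5 to 3.91. With 0.5 in place of 0.2 added to each level, the changes of Olfr687 and Olfr695 were too small to count. Olfr461 lies in the cluster of Olfr460 on chromosome 6. Olfr686, 71.1 kb before Olfr687, was at 1.36 at 0 hpi and 1.28 at 48 hpi, so the gain did not reach it.

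For 20 kb beyond Olfr692, the next member, H3K27Me3 was below the library mean and both active marks had their largest gains of the 4 stretches measured around it. In the 100 kb upstream of the Olfr692 start, the H3K27Me3 level was 1.23, 1.25, 1.93, 2.48 and 3.12 from 0 to 48 hpi, a 2.54-fold (2.37 to 2.72) gain, while 100 to 250 kb upstream it went from 0.974 to 1.11. In the same 100 kb both active marks were also higher at 48 hpi, H3K4Me1 at 0.559 against 0.247, a 2.26-fold (1.84 to 2.80) gain, and H3K27Ac at 0.327 against 0.171, a 1.92-fold (1.51 to 2.44) gain, both still below the library mean. In the 20 kb downstream of the start, H3K27Me3 was 0.523 at 0 hpi and 0.640 at 48 hpi, and the H3K27Ac level was 1.04, 4.02, 12.6, 16.7 and 12.7, a 12.2-fold (10.2 to 14.7) gain. H3K4Me1 there went from 1.95 to 10.5. From 20 to 150 kb downstream, H3K27Me3 went from 1.56 to 2.29, a 1.47-fold (1.38 to 1.56) gain, H3K4Me1 from 0.703 to 1.73, a 2.45-fold (2.21 to 2.73) gain, and H3K27Ac from 0.421 to 1.77, a 4.2-fold (3.73 to 4.74) gain. The strongest 500 bp of H3K27Ac was centred 4550 bp downstream of the Olfr692 start, at levels of 5.79, 35.2, 66.5, 91.1 and 57.9, and the annotated start of Gm5901, a predicted gene, is 6.87 kb from the Olfr692 start. Olfr692 itself stood between these states. Its H3K4Me1 levels were 0.632, 0.699, 1.89, 3.66 and 5.16, its H3K27Ac levels 0.429, 0.838, 1.55, 1.21 and 2.19, and its H3K27Me3 levels 1.29, 1.33, 2.10, 2.38 and 2.20. It was the single member that reached a level of 2 for all 3 marks, and 1 library pools all cells, so marks on the same chromosome copy and on different cells cannot be told apart.

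**Figure D5:**
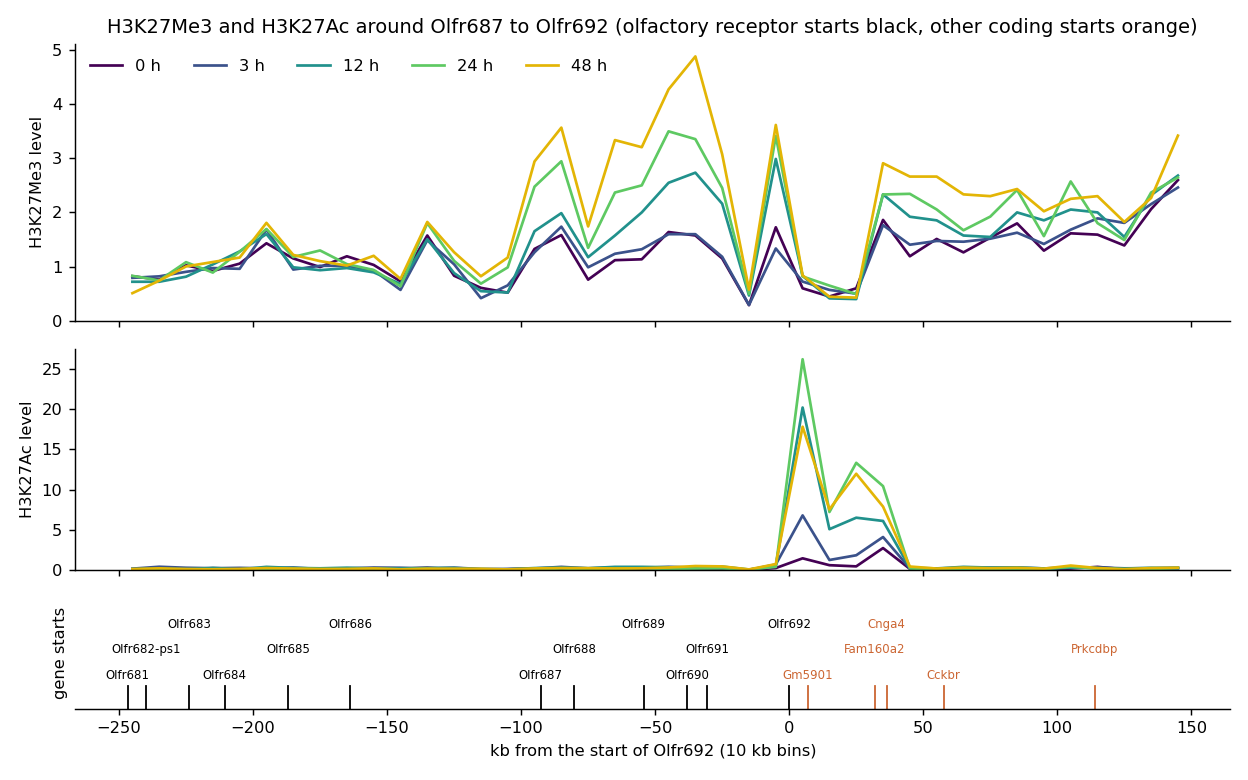
H3K27Me3 level (top) and H3K27Ac level (middle) in bins of 10 kb against the distance in kb from the start of Olfr692, 1 line per time, above the positions of the olfactory receptor starts (black) and other coding starts (orange). H3K27Me3 was 2.54 times higher at 48 hpi over the 100 kb upstream, and H3K27Ac 12.2 times higher over the 20 kb downstream and 1.92 times over the 100 kb upstream.

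Of 10 well-studied receptors listed for their place in the field, 9 were found, and Olfr160 was not analysed here. Olfr17 was described above. The 8 others, Olfr2 (I7), Olfr16 (MOR23), Olfr73 (mOR-EG), Olfr78, Olfr151 (M71), Olfr544, Olfr558 and Olfr1507 (MOR28), had H3K4Me1 levels between 0 and 0.886 and H3K27Ac levels between 0 and 0.605 over all times, and the highest of both belonged to Olfr2 at 3 hpi. Olfr2, a receptor for octanal, had H3K27Me3 levels between 1.15 and 1.42. Olfr78, which is also known from the carotid body, had H3K27Me3 levels of 1.96, 1.69, 1.84, 1.80 and 1.54. Olfr558 was the 1 member of the list that reached a level of 2 for H3K27Me3, at 2.28, 2.39, 2.80, 2.50 and 3.25. Olfr73, the receptor for eugenol, was lowest, between 0.336 and 0.686. None of these 8 receptors reached the library mean for an active mark in any library, and neither did the median member of the family.

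Among the genes that act with olfactory receptors, active marks were more common at regulators of receptor choice than at genes of odorant transduction. H3K27Ac reached a level of 2 at any time at 6 of 10 and 2 of 13 of them, against 49.2% of all starts. H3K4Me1 did so at 6 of 10 and 4 of 13, against 52.0%. Among 13 genes of odorant transduction, from the G protein Gnal and the cyclase Adcy3 to the channel subunits Cnga2 and Cnga4, H3K4Me1 was higher at 48 hpi at 1, against 2.8% of all starts, and lower at 1, against 4.49%. H3K27Ac was higher at 1, against 3.07%, and 4 had H3K27Me3 at a level of 2 in all libraries, against 10.2%. The 13 include Cngb1, which had a level of 0 for both active marks in every library and at most 0.0266 for H3K27Me3. Its window may therefore not have been measurable. The gene that gained both active marks was Omp, the olfactory marker protein, with H3K4Me1 levels of 3.85, 2.56, 5.17, 7.91 and 11.4 and H3K27Ac levels of 0.590, 1.30, 2.00, 3.86 and 5.72. Stoml3, a membrane protein of olfactory cilia, was the gene with lower H3K4Me1, from 2.59 to 0.972. Among 10 regulators of receptor choice, 6 had H3K27Ac at a level of 2 in all libraries, against 43.5% of all starts, and these were Lhx2, Ldb1, Ebf1, Kdm1a, Atf5 and Ddit3. H3K27Ac was lower at 48 hpi at 2 of the 10, against 7.35% of all starts, which were Ebf1, a factor that B cells share with olfactory neurons, from 46.1 to 18.4, and Lhx2, from 12.6 to 5.37. Of 6 pre-B cell markers, H3K27Ac was lower at 48 hpi at 6, against 7.35% of all starts, and of 6 macrophage markers it was higher at 5, against 3.07%. The 5 olfactory neuron markers had median H3K27Ac levels of 0.215 at 0 hpi and 0.199 at 48 hpi, and Omp was the 1 of them that changed.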

How the data were processed

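The authors aligned 36-bp ChIP-seq tags to mm9 with Eland or Bowtie, allowing 0 mismatches, and removed identical and non-unique tags. The deposited files give the start and end coordinates of each tag on chromosomes, with no strand and no score, so a tag was placed at its middle, 18 bp from its start. Antibodies were from Diagenode (H3K4Me1), Abcam (H3K27Ac) and Millipore (H3K27Me3), and no input library was used here. Distinct positions were counted in each window and divided by the number expected from the library mean over mappable bins of 1 kb (5 kb for H3K27Me3). A 36-mer that occurs once in mm9 marked a unique position. Members, gene lists and rules were chosen with earlier results of these data known. Named members were the 5 with the highest mean level per mark, up to 10 at or above 2-fold in all 5 libraries, the 3 largest gains and losses, and a list of well-studied receptors. Intervals are exact Poisson for a level and exact conditional binomial for a ratio. Alternatives were the scale, window, threshold, minimum level, pseudocount, alignability and subsets of members. Calculations used python 3.11.15, numpy 2.4.6, pandas 2.3.3, scipy 1.17.1, numba 0.67.0 and matplotlib 3.10.9, and were tested on simulated data.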

Additional observations from a re-analysis of the deposited data

How the results depend on the processing

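No paired analysis was possible because no group held more than 1 library, and for the same reason no replicate could be left out. Of 153 alternative values for the family levels, the family changes and the counts of members, 87 stayed within counting error or within 1.5 times the main count, 65 moved and 1 reversed, and family changes kept their sign in 21 of 27 alternatives. The reversal was the H3K4Me1 change of the family, −0.36 on the log2 scale by the library mean and 0.20 relative to bins that were not enriched, where the median member was at −0.06. On that scale the mean family levels were 0.871 for H3K4Me1, 0.784 for H3K27Ac and 1.62 for H3K27Me3, against 0.270, 0.228 and 1.01, and the log2 changes were −0.12 for H3K27Ac and 0.14 for H3K27Me3. Members at a level of 2 in all 5 libraries numbered 19, 11 and 181 there for H3K4Me1, H3K27Ac and H3K27Me3, members higher at 48 hpi 31, 12 and 11, and members lower 12 for H3K4Me1 and 11 for H3K27Ac. At 0 and 48 hpi, the members at a level of 2 numbered 46 and 61 there for H3K4Me1, 23 and 28 for H3K27Ac, and 252 and 288 for H3K27Me3. That scale multiplies every level, which is what moves these counts. A threshold of 1.5 gave 10, 5 and 132 members in all 5 libraries, and a threshold of 4 gave 3, 1 and 2. Without the minimum level of 2, members higher at 48 hpi numbered 32 for H3K4Me1 and 21 for H3K27Ac (2.88% and 1.89%, against 3.70% and 5.67% of all starts) and members lower 153, 43 and 8 for the 3 marks (13.7%, 3.86% and 0.719%, against 14.5%, 10.2% and 0.667%).

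With windows of 1 kb the mean family levels were 0.301 for H3K4Me1 and 0.967 for H3K27Me3, and the log2 changes −0.28, 0.056 and −0.092 for the 3 marks. There, 16 members were higher for H3K4Me1, 1 was at the level in all 5 libraries for H3K27Ac and 1 was lower for H3K27Me3. Windows of 10 kb gave mean levels of 0.247, 0.221 and 0.983 and 4 members lower for H3K4Me1. Members at least 80% unique gave mean levels of 0.289, 0.248 and 1.07, with 1 lower for H3K4Me1. Counting per uniquely alignable position gave 0.987 for H3K27Me3, and tags as deposited 0.220 for H3K27Ac.

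Members at least 100 kb from other coding starts had mean levels of 0.205, 0.207 and 0.824 and log2 changes of 0.11 for H3K27Ac and −0.13 for H3K27Me3. Of them, 2, 1 and 5 were at the level in all 5 libraries, 5 for H3K4Me1 and 1 for H3K27Me3 were higher at 48 hpi, and 0 were lower for H3K4Me1 and for H3K27Ac. Members that start upstream of the coding sequence had mean levels of 0.312, 0.258 and 1.13 and log2 changes of −0.12 for H3K27Ac and 0.028 for H3K27Me3. Of these, 31 were at the level in all 5 libraries for H3K27Me3, 4, 2 and 3 were higher for the 3 marks, and 1 for H3K4Me1 and 2 for H3K27Ac were lower. These subsets hold fewer members by construction, and beyond that the cause was not tested. The changes of the named members kept their sign in 104 of 104 alternatives. These members were chosen for large changes and each alternative recounted the same libraries, so the kept sign gives no independent support. Windows of 10 kb brought Olfr763 for H3K4Me1 from −1.65 to −0.49 on the log2 scale and windows of 1 kb brought Olfr690 for H3K27Me3 from 1.49 to 0.97, both below the size that counts as a change. Windows of 10 kb also brought Olfr788 for H3K4Me1 from 3.03 to 1.55 and Olfr229 for H3K27Ac from 3.80 to 2.41. For H3K27Ac they brought Olfr1230 from 4.29 to 3.14, Olfr17 from −2.95 to −2.06 and Olfr9 from −1.89 to −1.22. Windows of 1 kb brought H3K27Ac at Olfr279 from −1.92 to −1.25 and at Olfr9 to −1.27. Thinning to the smallest library of each mark moved 0 of 15 of the values for the family and its counts. The active marks had a median of 2 to 6 tags per member.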
